A study of Mus musculus with 8 samples.

Results

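The genes described here are 46 transcription factors outside the Hox clusters that direct the first lineage choices and the patterning of the embryo: GATA, SOX, PAX, LIM-homeodomain, NKX, DLX, forkhead, T-box, engrailed and MEIS factors, together with proneural and HAND or TWIST basic helix-loop-helix factors. They were taken by gene symbol from the 50902 genes of the expression table as genes known to be bound by Polycomb in mouse embryonic stem cells (ESCs), and the rule itself reads no expression value, although the list was drawn up with earlier results of these data known. RNA sequencing was carried out on E14 mouse ESCs kept in N2B27 medium with LIF and 2i, which holds them in the ground state of pluripotency. One line carried a Flag- and HA-tagged wild-type BAZ2A that the small interfering RNA does not target (ESC + F/H-BAZ2ArWT, n = 4 libraries), and the other carried the same protein without its TAM domain, the part that binds RNA (ESC + F/H-BAZ2ArΔTAM, n = 4 libraries). Every library, of either line, came from cells transfected with siRNA against Baz2a and collected 3 days later, and the comparison asks how expression differs when BAZ2A lacks the TAM domain. The transgenes were inserted by piggyBac transposition, for which the methods describe the isolation of single-cell clones, so the TAM deletion and any other difference between the lines cannot be told apart. In bulk RNA, fewer cells with a transcript and less transcript per cell cannot be told apart either.

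In pluripotent cells most lineage-specifying factors are kept silent by Polycomb repressive complexes, which place H3K27me3 and monoubiquitinate histone H2A over CpG-rich promoters. Many of these promoters also carry H3K4me3 and are called bivalent, a state in which transcription is low but can be raised when the cell differentiates. The factors act in sequence, from germ layer choice (Eomes, Gsc, Sox17, Sox1) to organ and regional identity (Nkx2-5, Wt1, En1, Olig2).

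The 8 libraries held between 6560881 and 8662855 reads on genes. Baz2a itself had 18661 to 21787 reads in the wild-type line and 29074 to 41406 in the ΔTAM line, a fold change of 1.74 (adjusted p = 1.05e-14, limma-voom), and these reads do not separate transgene from endogenous transcripts. All 9 ESC markers on the list had a mean of at least 10 reads. Sox2, Esrrb, Klf4, Utf1 and Dppa4 were lower in the ΔTAM line (limma-voom), as were 22.0% of all genes tested. Pou5f1, Nanog, Zfp42 and Tfcp2l1 were not called. Lists for other cell types held well-read genes, such as Lamc1, Lama1 and Sparc of primitive endoderm, Tfap2c of trophoblast and Nes and Tubb3 of neural cells, beside genes with 0 reads in every library (Prl3d1, Afp, Ttr, Fabp7 and Dcx).

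Start-site sequences give the base composition of these genes, which varied between members. Of the 46 members, 32 had a RefSeq window of 300 bases around a start site (GRCm38.p6, 250 bases before to 50 after; where several existed, the one nearest to the gene's edge in the table was taken). The median window held 23 CG dinucleotides (range 9 to 40) and 62.7% G and C bases, against 12 CG dinucleotides and 55.7% over the 19495 genes with a window, and 21 and 61.3% over those averaging 10 reads or more. The ratio of observed to expected CG exceeded 0.6, a customary bound for CpG islands, in 27 of 32 members (84.4%), in 45.6% of all genes and in 74.8% of the 9532 genes averaging 10 reads or more. The GC box GGGCGG, read on both strands, was present in 19 of 32 members (59.4%), in 44.1% of all windows and in 66.5% of those of genes averaging 10 reads or more. TATAAA, read on both strands, was present in 5 of 32 members (15.6%), against 13.0% and 6.31%. The 150 bases before the start are given below, 5′ to 3′ on the gene's strand, for Gata2 and Eomes, which were lower in the ΔTAM line, for Lhx2, which was measured and not called, and for Evx2, which had no read in any library; each CG is in capitals.
Gata2, chr6:88193741-88193890, plus strand: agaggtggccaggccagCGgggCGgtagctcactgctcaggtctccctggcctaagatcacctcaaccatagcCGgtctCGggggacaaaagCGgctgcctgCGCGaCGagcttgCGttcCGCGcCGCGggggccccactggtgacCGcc
Eomes, chr9:118478039-118478188, plus strand: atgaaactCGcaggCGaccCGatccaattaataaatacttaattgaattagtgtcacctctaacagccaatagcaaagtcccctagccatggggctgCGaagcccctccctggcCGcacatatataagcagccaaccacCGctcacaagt
Lhx2, chr2:38339131-38339280, plus strand: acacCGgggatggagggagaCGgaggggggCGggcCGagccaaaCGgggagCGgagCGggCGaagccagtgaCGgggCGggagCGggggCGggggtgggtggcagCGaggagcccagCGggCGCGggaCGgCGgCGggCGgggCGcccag
Evx2, chr2:74659558-74659707, minus strand: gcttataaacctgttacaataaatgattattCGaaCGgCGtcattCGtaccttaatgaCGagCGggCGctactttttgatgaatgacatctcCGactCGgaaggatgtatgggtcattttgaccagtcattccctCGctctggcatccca

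These stretches held 14, 6, 21 and 10 CG dinucleotides in that order. Over the whole windows, the 5 silent members with a sequence (Nkx2-2, Nkx6-1, Six2, Tbx1, Evx2) had a median observed to expected CG ratio of 1.13, the 24 members with a mean under 10 reads, these 5 included, had a median of 0.80, and the 8 members with a mean of at least 10 reads had a median of 0.86. Evx2 and Sox1, for example, had ratios of 1.13 and 1.07 with 0 and 16.8 reads on average, although the Evx2 window held 16 CG dinucleotides and 44.3% G and C bases and the Sox1 window 37 and 70.7%.

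**Figure D1:**
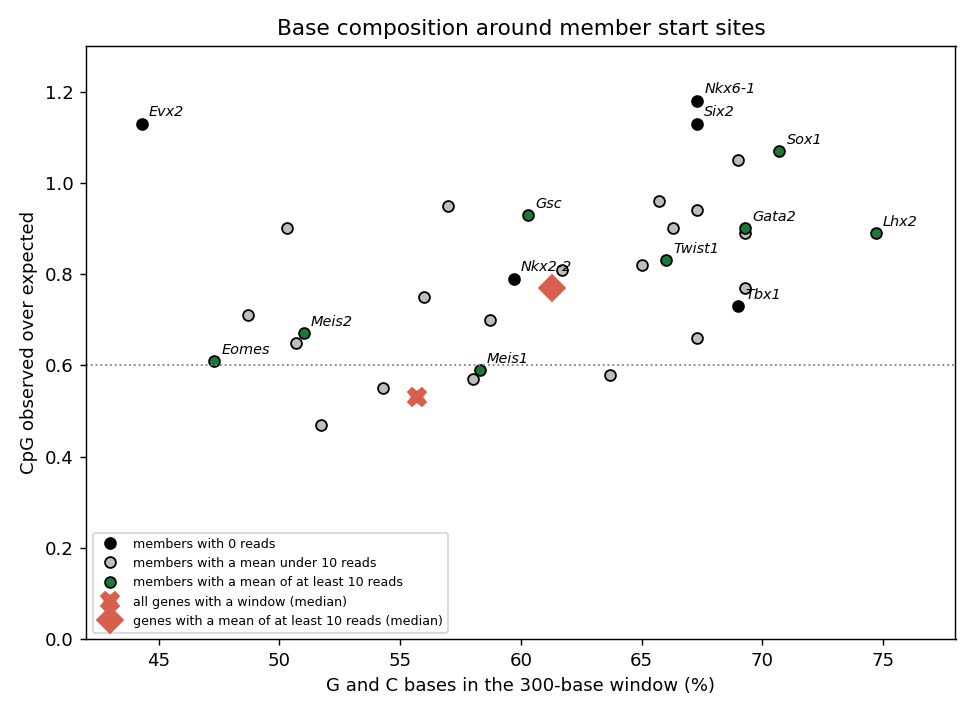
Base composition of the 300-base start-site windows of 32 members. The x axis gives the percentage of G and C bases and the y axis the observed over expected CpG ratio, with black points for members with 0 reads, grey for members with a mean under 10 reads and green for members with a mean of at least 10 reads; orange symbols are medians over all genes and over those averaging 10 reads or more, and 27 members lie above the dotted line at 0.6.

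Most members were close to silent in both lines. Whole reads were recovered from the deposited values, since RPKM (reads per kilobase and per 1000000 reads, here per kilobase of genomic span) rises in steps of 1 read. In 6 members no read was counted in any library (Nkx2-2, Nkx6-1, Dlx5, Six2, Tbx1 and Evx2); read levels are given as RPM, reads per 1000000 reads counted on genes, and a count of 0 over the 4 libraries of a line allows up to 0.1 RPM (3 reads; counting error only). A further 10 averaged under 1 read, 20 averaged 1 to under 10 reads, and 10 averaged at least 10 reads. Only 20 of the 46 had a read in all 8 libraries. All 46 together had 511 to 611 reads in a wild-type library and 471 to 640 in a ΔTAM library, which is 76.7 ± 6.19 and 73.1 ± 2.05 RPM (SD, n = 4 each), so the summed level differed by less than the spread between wild-type libraries. Meis2 alone held 45.5% of these reads and the 10 best-measured members 86.7%. Without Meis2 the sums were 41.3 ± 2.94 and 40.3 ± 1.51 RPM (SD, n = 4 each).

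Set per length of exon (RPM per kilobase of exon, exons from GENCODE vM21), Meis2 had the highest level (2.83), followed by En2 (2.19), Eomes (1.77), Gsc (1.36), Gata4 (1.22) and Twist1 (1.08). Levels then fell to 0.461 for Sox1, 0.390 for Gata2, 0.352 for Neurog1 and 0.331 for Lhx2. The ranges over all 8 libraries overlapped between neighbours in this order from Meis2 to Twist1 and again among Sox1, Gata2, Neurog1 and Lhx2, while the lowest Twist1 library (0.825) lay above the highest Sox1 library (0.677). No member reached 6.71, the median of the 11476 genes averaging 10 reads or more that have a known exon length, and 4 of the 10 best-measured members lay under the 10th percentile of those genes (0.882).

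**Figure D2:**
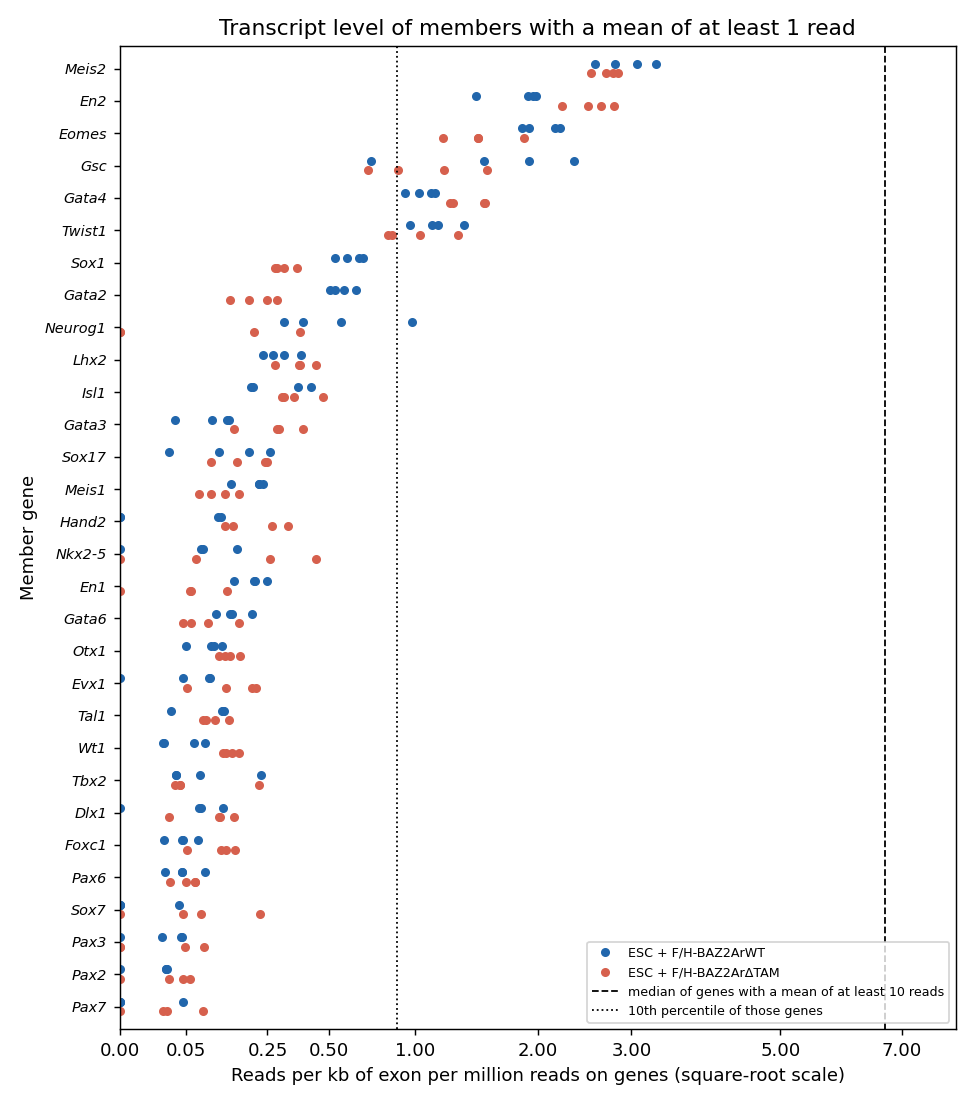
Level of the 30 members with a mean of at least 1 read, one point per library (blue ESC + F/H-BAZ2ArWT, red ESC + F/H-BAZ2ArΔTAM), as RPM per kilobase of exon on a square-root axis. Every point lies left of the dashed line, the median of genes averaging 10 reads or more (6.71), and the dotted line is the 10th percentile of those genes (0.882).

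Differences between the lines were tested in a pair of limma fits over all genes. On log2(RPKM + 0.1), which holds 8997 genes averaging 0.1 RPKM or more, only Eomes, En2, Gsc and Twist1 among the members could be tested: 1 was higher (19.9% of all genes tested were) and 1 lower (15.9%). On the recovered reads, with 12657 genes averaging 10 reads or more, 10 members could be tested: 1 was higher against 21.8% of all genes, and 4 were lower against 22.0%. At the study's thresholds (log2 fold change of 0.58 or more in size, with an unadjusted p under 0.05) 0 members were higher, where 5.18% of genes were, and 3 were lower, where 6.63% were. The minimum is a mean over both lines: Gata2 and Meis1 reached 10 reads on average only in the wild-type line and Lhx2 only in the ΔTAM line, so these counts depend in part on which members the minimum admitted. Calls below are adjusted p under 0.05 (Benjamini-Hochberg over all genes tested), and fold changes are ΔTAM against wild type; those on log2(RPKM + 0.1) understate the change of low genes. GEO labels do not say that the 4 libraries of a line came from separate cultures, so p-values measure the spread between these libraries, which may be technical.

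**Figure D3:**
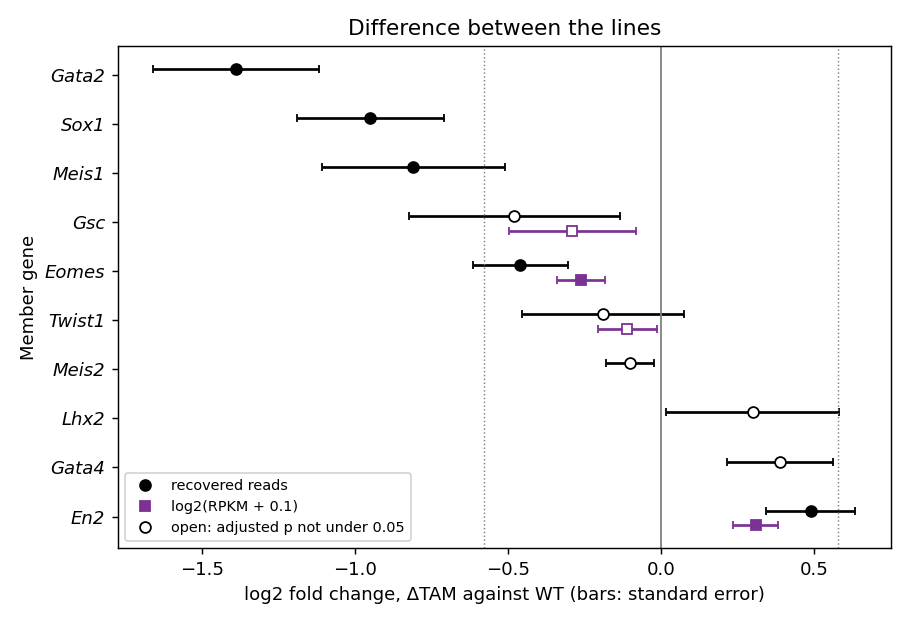
Log2 fold change of the 10 members with a mean of at least 10 reads, ΔTAM against wild type, with its standard error (n = 4 libraries a line). Circles are the fit on recovered reads and squares the fit on log2(RPKM + 0.1), open where the adjusted p was not under 0.05; Gata2, Sox1 and Meis1 lie left of the dotted line at −0.58 and En2 is the only filled symbol right of 0.

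Gata2 showed the largest fold change of the tested members. This zinc-finger factor maintains blood stem cells and acts in trophoblast giant cells (chr6:88193891-88207032, plus strand, mm10). It had 23, 22, 25 and 21 reads in the wild-type libraries and 9, 10, 6 and 9 in the ΔTAM libraries. Every ΔTAM library lay below every wild-type library. The level was 2.62-fold lower in the ΔTAM line (log2 fold change −1.39, SE 0.271, adjusted p = 2.26e-04, limma-voom), from 3.04 ± 0.309 to 1.16 ± 0.340 RPM (SD, n = 4 each). Gata3, its relative in trophoblast, had 4, 3, 1 and 4 reads against 4, 10, 9 and 10, and is taken up with the rarely read genes. Tal1, a basic helix-loop-helix factor of blood formation, had 13 reads in all in each line. Summed over these 3 genes the level was 3.87 ± 0.372 and 2.71 ± 0.547 RPM (SD, n = 4 each). Trophoblast markers did not move in 1 direction: of 6 tested on reads, Cdx2 and Tfap2c were higher and Eomes, Krt8 and Krt18 lower, with a summed level of 85.9 to 88.6 RPM in wild-type and 85.4 to 100 in ΔTAM libraries. Their part in the Gata2 result was not tested.

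Sox1, the SOXB1 factor of early neuroectoderm, was also lower (chr8:12395295-12400126, plus strand). Its reads were 19, 22, 23 and 25 in wild-type and 9, 9, 12 and 15 in ΔTAM libraries. The groups did not overlap. The log2 fold change was −0.95 (SE 0.242, adjusted p = 0.00296, limma-voom), from 2.97 ± 0.318 to 1.49 ± 0.177 RPM (SD, n = 4 each). En2, an engrailed homeodomain factor of the midbrain and cerebellum, changed the other way (chr5:28165694-28172166, plus strand). It had 38, 54, 49 and 53 reads in wild-type and 63, 52, 79 and 77 in ΔTAM libraries. Scaled to depth, every ΔTAM library lay above every wild-type library, at 9.03 ± 0.844 against 6.46 ± 0.891 RPM (SD, n = 4 each). Its log2 fold change was 0.49 on reads (SE 0.146, adjusted p = 0.00866, limma-voom) and 0.31 on log2(RPKM + 0.1) (SE 0.0728, adjusted p = 0.0129, limma). En2 had the highest level of the neural members and was the only member called higher in either fit. Lhx2, a LIM-homeodomain factor of the forebrain and eye, had 10, 8, 12 and 9 reads against 13, 8, 13 and 14 and was not called (log2 fold change 0.30, SE 0.284, adjusted p = 0.417, limma-voom).

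The other 16 neural members were too rarely read to be fitted. Neurog1, a proneural factor, had 7, 5, 12 and 4 reads in wild-type and 0, 0, 5 and 3 in ΔTAM libraries, so the groups overlapped by single libraries. En1, the paralogue of En2, had 4, 5, 4 and 3 reads against 1, 1, 0 and 3. Pax6, of eye and cortex, had 17 reads in all in the wild-type and 18 in the ΔTAM line, Otx1 15 and 22, and Dlx1, of inhibitory forebrain neurons, 11 and 17. Pax3 had 5 and 6 reads, Pax7 2 and 6, Dlx2 2 and 3, Irx3 5 and 1 and Irx5 2 and 3. Neurog2 had 1 read in each line, Lhx5 0 and 1, and Olig2 1 and 0, while Nkx2-2, Nkx6-1 and Dlx5 had none. Summed over its 19 members the neural group gave 14.2 ± 2.01 and 15.1 ± 1.45 RPM (SD, n = 4 each), which overlap. Of the 8 neural progenitor markers, which include Sox1 and Pax6, 5 could be fitted: Nes, Sox1, Map2 and Ncam1 were lower and Tubb3 was not called, and their summed level was 58.2 to 70.7 RPM in wild-type and 38.2 to 42 in ΔTAM libraries. The part of these markers in the Sox1 result was not tested.

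**Figure D4:**
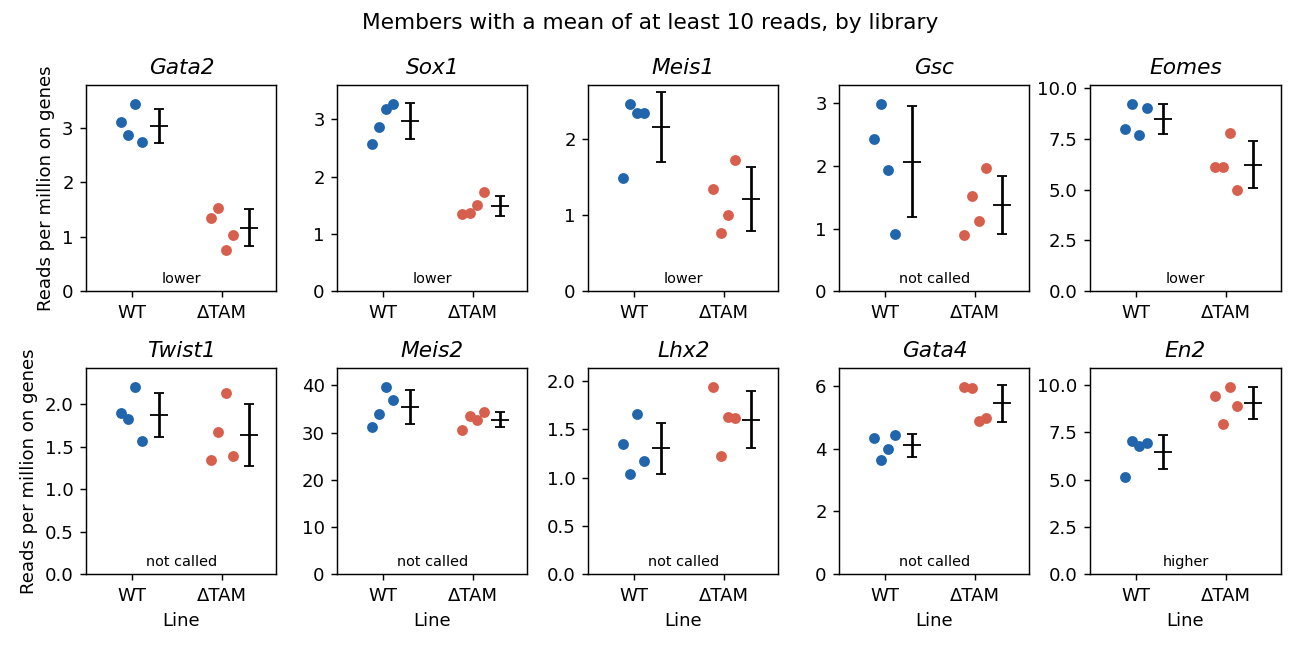
RPM for the 10 members with a mean of at least 10 reads, one point per library, with the mean and SD of each line (n = 4) beside the points and the call on recovered reads in each panel. The groups stand apart for Gata2, Sox1, Gata4 and En2, and the y axes start at 0 and differ in range.

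Meis1 and Meis2 are TALE homeodomain proteins that bind DNA together with Hox and Pbx proteins. Meis1 (chr11:18879817-19018985, minus strand) had 11, 19, 17 and 18 reads in wild-type and 9, 5, 8 and 15 in ΔTAM libraries. The first wild-type library lay inside the ΔTAM range. Its log2 fold change was −0.81 (SE 0.299, adjusted p = 0.0317, limma-voom), and leaving out any of wild-type libraries 2, 3 and 4 or ΔTAM libraries 2 and 3 raised the adjusted p to between 0.0639 and 0.103. In its annotated exons, 18.3% of bases are shared with another gene. Meis2 had 231, 260, 288 and 282 reads against 205, 220, 260 and 297. These ranges overlapped, and its log2 fold change was −0.10 (SE 0.0788, adjusted p = 0.329, limma-voom). Whether the change differs between Meis1 and Meis2 was not tested.

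Of the 8 endoderm and mesendoderm factors 3 could be fitted on reads, and Eomes was called lower while Gata4 and Gsc were not called. Summed over the 8 the level was 16.4 ± 1.22 and 14.9 ± 0.841 RPM (SD, n = 4 each). Eomes, a T-box factor that acts in the primitive streak, definitive endoderm and trophoblast (chr9:118478212-118486132, plus strand), had 59, 71, 56 and 69 reads in wild-type and 41, 40, 62 and 43 in ΔTAM libraries. The third ΔTAM library lay within the wild-type range after scaling to depth, and the other three lay below it. The level went from 8.49 ± 0.754 to 6.24 ± 1.15 RPM (SD, n = 4 each), with a log2 fold change of −0.46 on reads (SE 0.155, adjusted p = 0.02, limma-voom) and −0.26 on log2(RPKM + 0.1) (SE 0.0784, adjusted p = 0.0359, limma). The call was lost in several fits: on reads the adjusted p was 0.0541 without wild-type library 2 and 0.109 without ΔTAM library 4, and on RPKM it exceeded 0.05 in 6 of 8 such fits, reaching 0.0901 at most, and was 0.0764 with no filter on low values.

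Gata4, a GATA factor of primitive endoderm and heart, had 32, 28, 29 and 34 reads in wild-type and 40, 39, 39 and 43 in ΔTAM libraries. The groups did not overlap, which by itself sets the exact two-sided permutation p at 0.0286, the smallest that 4 against 4 libraries allow. The call was not reached over all genes (log2 fold change 0.39, SE 0.174, adjusted p = 0.0725, limma-voom). Gata6, its partner in primitive endoderm, had 29 reads in all in the wild-type and 17 in the ΔTAM line, and its libraries overlapped. Sox17 had 21 and 27 reads and Sox7 1 and 8. Foxa2 and Lhx1, factors of the node and anterior endoderm, had 1 read each, in the ΔTAM line. Gsc, the homeobox gene of the organizer, had 18, 23, 14 and 7 reads against 6, 10, 9 and 17; the groups overlapped and it was not called (log2 fold change −0.48, SE 0.345, adjusted p = 0.276, limma-voom). Without wild-type library 4, the lowest of its group, Gsc was called lower (log2 fold change −0.82, adjusted p = 0.0352, limma-voom); in the other 7 fits with a library left out it was not called, with the smallest change, −0.26 (adjusted p = 0.6, limma-voom), without wild-type library 2. Of 14 primitive endoderm markers, 7 could be fitted, among them Gata4: Lamb1 and Lamc1 were higher, Sparc, Lama1, Col4a1 and Col4a2 lower. The summed level of the list was 1710 to 1760 RPM in wild-type and 1860 to 1910 RPM in ΔTAM libraries. Lamc1 held most of this sum, with a mean of 1170 RPM in the wild-type and 1520 in the ΔTAM line. Lama1 went the other way, from 324 to 156 RPM, as did Sparc, from 169 to 142. Dab2, too rarely read to be fitted, had 0, 0, 3 and 0 reads against 10, 4, 10 and 9. Amn, as rarely read, had 1, 4, 3 and 4 reads against 1, 0, 0 and 1, and Afp and Ttr were at 0. The part of these markers in the Gata4 values was not tested.

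Factors of the heart, limb and mesenchyme were barely read. Twist1, which controls mesenchymal fate, was the only one of 9 that could be fitted, with 14, 14, 16 and 12 reads in wild-type and 9, 11, 17 and 12 in ΔTAM libraries. It was called in neither fit (log2 fold change −0.19 on reads, SE 0.266, adjusted p = 0.589, limma-voom). Isl1, a factor of the second heart field and of motor neurons, fell just short of the minimum, with 35 reads in all in the wild-type and 43 in the ΔTAM line. Foxc1 had 2, 1, 3 and 2 reads against 6, 2, 6 and 6. Hand2 had 0, 2, 2 and 0 against 2, 5, 5 and 3. Tbx2 had 10 reads in each line, Nkx2-5 4 and 9, Tbx5 2 in each and Hand1 2 and 1. The summed level of the 9 genes was 4.05 ± 0.977 and 4.96 ± 0.486 RPM (SD, n = 4 each), and these overlap.

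The 3 kidney factors were led by Wt1, a zinc-finger factor of nephron progenitors and gonad, with 1, 4, 1 and 3 reads in wild-type and 6, 5, 8 and 7 in ΔTAM libraries; Pax2 had 3 and 5 reads in all and Six2 none. Their sum was 0.397 ± 0.144 RPM in the wild-type and 1.04 ± 0.182 in the ΔTAM line (SD, n = 4 each), a difference larger than the spread between libraries and held mostly by Wt1. Of the even-skipped pair, Evx1, a factor of the posterior primitive streak, had 5 reads in all in the wild-type and 13 in the ΔTAM line.

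Among the 20 members with a mean of 1 to under 10 reads, RPM did not overlap between the lines in 4. Gata3, Wt1 and Hand2 were higher in every ΔTAM library, where 5.56% of the 5305 genes of this depth were, and En1 was lower in every ΔTAM library, where 4.07% were. Any gene whose libraries do not overlap has an exact two-sided permutation p of 0.0286 (unadjusted), the smallest that this design allows. The p of these 4 genes thus only repeats the non-overlap by which they were picked. In Gata3, Hand2 and En1 the nearest libraries of the 2 lines had the same raw count (4, 2 and 3 reads) and stood apart only after scaling to depth. From the summed reads, with exact 95% intervals that cover counting error only, the ratio of ΔTAM to wild type was 2.76 (1.39 to 5.86) for Gata3, 2.90 (1.32 to 7.03) for Wt1, 3.76 (1.2 to 15.6) for Hand2 and 0.313 (0.0898 to 0.895) for En1. Neurog1 (0.287, 0.113 to 0.645), Foxc1 (2.51, 1.06 to 6.58) and Sox7 (8.02, 1.08 to 356) had intervals that leave out 1 as well, with libraries that overlapped between the lines. The share of all genes of this depth with such an interval was not computed, so whether the members exceed it was not tested. For the other members of this depth the interval held 1: for Pax6 the interval ran from 0.516 to 2.19 and for Tal1 from 0.428 to 2.35.

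**Figure D5:**
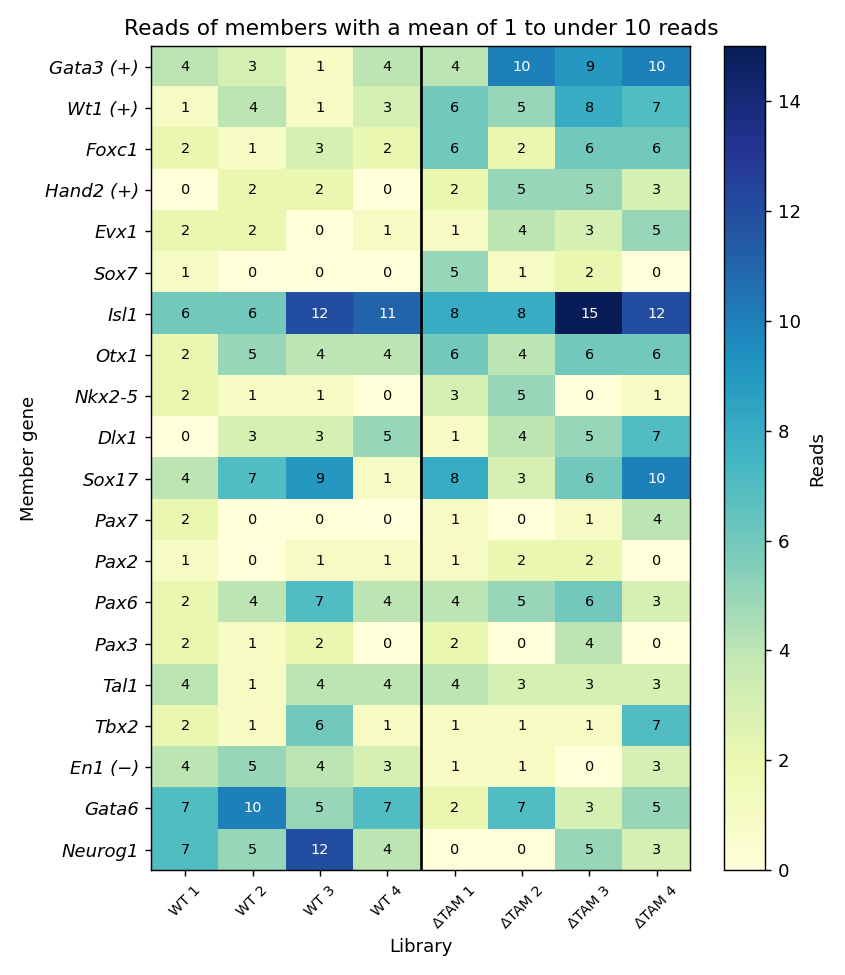
Reads in each library for the 20 members with a mean of 1 to under 10 reads, with genes ordered by the difference in RPM between the lines. A plus marks Gata3, Wt1 and Hand2, higher in every ΔTAM library after scaling to depth, and a minus marks En1, lower in every one; no cell exceeds 15 reads.

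Genes that overlap a member were barely read, but reads in exons shared by genes may be missing from the counts of both. There were 16 members that overlap another annotated gene, and of the 25 such genes in the table none averaged 10 reads; Dlx1as, with 4 to 10 reads a library, was read most. Among 81 relatives of the members from the same families, fixed as a list beside them, 23 had a mean of at least 10 reads. On reads 8 of these were higher, 3 lower and 12 not called, where 21.8% of all genes tested were higher and 22.0% lower.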

How the data were processed

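PolyA-selected RNA was sequenced as stranded TruSeq libraries (NovaSeq and single-end in the labels; the study's methods name a HiSeq instrument and paired-end or single-end reads). Per the labels and the study's methods, the authors removed ribosomal reads, trimmed with Trimmomatic (version 0.36 in the labels), aligned with STAR to mm10 and deposited RPKM per gene. The annotation release, strand setting and treatment of multimapping reads are not given in the sources used here. RPKM is scaled by genomic span: value times span gave whole reads, within 0.02 of a read, for 99.5% of values above 0. Of 51288 entries, 386 repeats of a symbol were set aside. Noncoding entries lying mostly within exons of an expressed gene held almost no reads (62 of 64 on the opposite and 138 of 144 on the same strand under 1% of the density of that gene), so reads in shared exons may be missing.

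R 4.3.3 with limma 3.58.1 gave the fits: limma-trend on log2(RPKM + 0.1) at a mean of at least 0.1 RPKM, and voom on recovered reads with median-ratio size factors at a mean of at least 10 reads, each with Benjamini-Hochberg adjustment. The code was tested on simulated data. Lists and members were chosen with earlier results of these data known. Values by library are given for members called in either fit and for the 5 of highest level; other members by their reads, and those named for low reads or for not overlapping were chosen after their values were seen. Alternatives covered pseudocount, filters, scaling, weights, a replicate block and leaving out each library. A relative of the members that is counted in the lists is not reported here by its values.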

Additional observations from a re-analysis of the deposited data

Results flagged for a closer look

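Of 20 groups of 4 libraries tested (the 10 members with a mean of at least 10 reads in each line), 2 held a library far from the other three; chance flags about 1 in 20 groups. Wild-type library 1 was the lowest for En2, at 0.118 RPKM, with a gap to the next library of 0.85 of the range of its group. The same library was the lowest for Meis1, at 0.00159 RPKM, with a gap of 0.864 of the range. Leaving that library out kept En2 higher and Meis1 lower in the ΔTAM line on recovered reads.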

How the results depend on the processing

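No tested member changed direction under any of the alternatives run. Gata2, Sox1 and En2 kept their calls on recovered reads in every alternative that tested them (adjusted p 1.15e-04 to 0.00214, 0.00283 to 0.00959 and 0.00411 to 0.0446, limma), and En2 in every RPKM alternative that tested it (0.0113 to 0.0429). On RPKM, a mean of at least 1 RPKM left 588 genes higher and 399 lower, and 0 members called in either direction, as no member reaches that mean. With no filter 2 members were higher (En2 and Wt1) and 3 lower (Gata2, Sox1 and En1), and Eomes lost its call (adjusted p = 0.0764, limma). A pairing of the libraries by replicate number was not established. Same-numbered libraries correlated only weakly (0.03 to 0.09), and not every library correlated best with its own number, but such weak correlations cannot exclude a pairing. A replicate block left 1557 genes higher and 1239 lower on RPKM and 2887 and 2936 on reads, changed no other member's call, and left 0 members lower on RPKM (Eomes, adjusted p = 0.0942, limma). On recovered reads, at the study's thresholds a mean of at least 50 reads left 293 genes higher and 361 lower and 0 members lower; by adjusted p it left 1 member lower, Eomes. At a mean of at least 5 reads 2 members were higher by adjusted p and 1 by the study's thresholds, since Gata3 entered (log2 fold change 1.39, adjusted p = 0.0172, limma). Quantile normalization also gave 2 higher, with Gata4 called (0.45, adjusted p = 0.0357, limma). Leaving out each library in turn gave 1438 to 1712 genes higher and 1137 to 1387 lower on RPKM, with 1 member higher and 0 to 1 lower. On reads it gave 2450 to 2722 higher and 2395 to 2714 lower, 617 to 684 and 790 to 888 at the study's thresholds, with 1 member higher and 2 to 4 lower by adjusted p, and 0 higher and 3 to 4 lower at those thresholds. Where a call was lost, the cause was not tested. Depth limits the rest: 36 of 46 members averaged under 10 reads.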

Other observations

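Relatives of the members from the same gene families differed between the lines in both directions. Gbx2, a homeodomain factor expressed in ESCs and at the hindbrain border, had 141, 138, 124 and 114 reads in wild-type and 218, 238, 287 and 283 in ΔTAM libraries (log2 fold change 1.0, SE 0.0887, adjusted p = 5.96e-09, limma-voom). Every ΔTAM library lay above every wild-type library. Nkx6-2 (0.93), Sox3 (0.84), Tbx20 (0.73) and Tbx15 (1.56) were also higher by at least 0.58 on the log2 scale. The Sox3 libraries overlapped (12, 20, 8 and 19 reads against 34, 12, 37 and 25) and the RPKM fit did not call it (adjusted p = 0.125, limma), and Tbx15 reached 10 reads on average only in the ΔTAM line. Sox11, a SOXC factor of neural and mesenchymal progenitors, was the only relative among the 23 fitted that was called lower by that margin, with 58, 57, 61 and 87 reads against 30, 29, 39 and 36 (log2 fold change −0.93, SE 0.172, adjusted p = 1.27e-04, limma-voom). At the study's thresholds 6 of the 23 fitted relatives were higher and 1 lower, where 5.18% and 6.63% of all genes tested were. Of the 58 relatives too rarely read to be fitted, those whose lines did not overlap in RPM lay in both directions and were named after their values were seen. All of those named averaged 1 to under 10 reads. Among all genes of that depth, 5.56% were higher in every ΔTAM library and 4.07% were lower in every one. Foxa1 had 9 reads in all in the wild-type and 33 in the ΔTAM line, Neurog3 7 and 22, Sox6 20 and 43 and Nkx2-9 2 and 7. Meis3 had 23 and 12. Otx2, the paralogue of Otx1 and a factor of primed epiblast, had 7, 9, 6 and 11 reads in wild-type and 1, 3, 1 and 1 in ΔTAM libraries. Lyl1, a relative of Tal1, had 10, 7, 4 and 4 reads against 2, 1, 1 and 4.

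Markers of other cell types gave mixed values. Of 7 mesoderm markers 2 could be fitted: Kdr, a receptor of blood and vessel progenitors, was higher, with 10, 16, 16 and 12 reads in wild-type and 25, 18, 35 and 28 in ΔTAM libraries (log2 fold change 0.96, SE 0.246, adjusted p = 0.003, limma-voom), and T was not called (−0.17, SE 0.0784). The summed level of the list was 41.5 to 44.9 RPM in wild-type and 34.3 to 43.9 in ΔTAM libraries. Of 6 primed epiblast markers 3 could be fitted: Dnmt3b was higher (0.72 on the log2 scale), Krt18 (−0.77) and Sall2 (−0.63) were lower, and Fgf5 had 0 reads in every library. Of 9 ESC markers 5 were lower and 0 higher in each fit, where 22.0% of all genes tested were lower on reads and 15.9% on RPKM. The log2 fold change on reads was −1.05 for Utf1, −0.42 for Sox2, −0.39 for Klf4, −0.23 for Esrrb and −0.14 for Dppa4. None of 6 fibroblast markers could be fitted, and their summed level was 0.911 to 1.79 RPM in wild-type and 1.27 to 2.51 in ΔTAM libraries.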
